A study of Homo sapiens with 114 samples.

Results

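HK-2 cells exposed to the compound labelled Di for 48 h were compared with control cultures of the same time, using 6 arrays of a series with 26 treated and 12 control groups of 3 arrays each, 3 labelled Di-t48h and 3 labelled CdCl_and_Di-t48h_ctrl. HK-2 is an immortalised line of human renal proximal tubular epithelial cells, here grown to about 90% confluency in medium with EGF, hydrocortisone and insulin. The series exposed these cells to several compounds at different doses and times in search of expression signatures of kidney toxicity. The labels give Di as an abbreviation with 1 exposure level and no dose, and the control cultures, which received vehicle, were shared with a compound labelled CdCl. Di at 12 h (3 arrays), CdCl at 48 h (3 arrays) and the 12 h control cultures (3 arrays) are used below for comparison. Replicates are called biological in the labels, with no word on separate passages or days, so that p-values measure the spread between these cultures of 1 line.

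Values are the authors' GCRMA signals on a log2 scale, where 1 unit is a 2-fold difference. A gene was read from 1 probe set, was tested if it exceeded log2 4 on at least 3 of the 18 arrays of Di, CdCl and their controls, and was called at a limma adjusted p below 0.05 over all 11045 genes tested. Array medians lay at 2.95 to 3.00 with Di and 2.91 to 2.95 in controls, so that values near 2 or 3 stand at the bottom of the scale and changes against them have no measured starting level. Upper quartiles were 6.76, 6.90 and 6.92 with Di, against 6.96, 7.03 and 6.92 in controls, and their part in the results was not tested beyond quantile normalisation, which gave 5347 called genes.

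Several stress pathways have well-known target genes that a proximal tubule cell can express. NRF2, a transcription factor held down by KEAP1 until electrophiles or metals modify that protein, drives genes of glutathione synthesis, quinone reduction, haem breakdown and NADPH supply. ATF4 and the heat shock factors respond to translation stress and to misfolded protein, p53 acts on CDK inhibitors, and metallothioneins are small cysteine-rich proteins induced by zinc and cadmium through MTF1. Proximal tubule cells are known for a leaky epithelium built with claudin-2 and for transport of phosphate, urate and amino acids.

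The HK-2 label was set against marker genes. All 6 epithelial markers exceeded log2 4 in both groups, with a median of 10.93 with Di and 11.46 in controls. Of 18 proximal tubule markers, 5 exceeded log2 4 in both groups (DPP4, ENPEP, PAX8, DAB2 and CDH6). They averaged 11.25, 11.02, 10.21, 9.00 and 7.71 with Di, against 11.57, 11.45, 9.83, 8.88 and 11.21 in controls. The endocytic receptors LRP2 and CUBN, the water channel AQP1 and the transporters SLC34A1, SLC22A6 and SLC22A8 stood at the bottom of the scale. They lay between 2.14 and 2.92 with Di and between 2.21 and 2.95 in controls. Of 12 markers of fibroblasts, endothelium and immune cells, 4 exceeded log2 4 in both groups (COL1A1, DCN, LUM and ACTA2). They averaged 7.55, 10.15, 8.12 and 6.14 with Di, against 7.69, 11.07, 8.92 and 6.47 in controls, well above the bottom of the scale. PECAM1, CDH5, PTPRC and CD14 lay at 3.25 or below.

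At 48 h, 5231 genes (47.4%) were called for Di, 2863 on the lower side (25.9%) and 2368 on the higher side (21.4%). With the arrays of the whole series in 1 fit 3046 were called. Changes of at least 2-fold comprised 505 rises and 933 falls. Di and control arrays did not overlap for 57.1% of the genes tested, with Di above in 26.6% and below in 30.6%. The median change over all genes was -0.02. These are bulk samples, so fewer cells of a kind and less RNA per cell cannot be told apart.

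The 15 largest rises were led by genes of the oxidative stress response and by genes close to the bottom of the scale in control cells. NMRAL2P, a pseudogene transcript of the NmrA-like family, read 7.51, 7.77 and 8.11 on the Di arrays, against 1.97, 1.96 and 1.97 on the control arrays. HMOX1, the haem oxygenase that opens the haem ring, read 13.75, 13.90 and 13.69 with Di, against 8.43, 8.38 and 8.46 in controls. Every Di array stood more than 5 log2 units above every control array for both genes, and the fitted changes were 5.83 (SE 0.33, adjusted p = 2.28e-09) and 5.36 (SE 0.10, adjusted p = 2.55e-14). DKK1, a secreted Wnt inhibitor, read 7.64, 8.36 and 7.89 with Di, against 2.51, 2.48 and 3.14 in controls. SNAI2, a zinc finger repressor known for acting on E-cadherin, read 7.46, 7.89 and 7.31 with Di, against 2.49, 2.40 and 2.49 in controls. MAP2, a microtubule-binding protein best known from neurons, was already present in controls at 6.72, 7.00 and 6.73 and read 11.94, 12.06 and 12.04 with Di. The other rises ranged between 3.94 and 4.83 and comprised AKR1C1, AKR1B10, SRXN1 and OSGIN1 of the NRF2 list, GPC1 (a heparan sulphate proteoglycan), ADORA2B (an adenosine receptor), FOSL1 (a subunit of AP-1), ATP6V0D2 (a proton pump subunit), CFAP251 and the RNA MSC-AS1. In 10 of the 15 the control mean lay below log2 4. GPC1 is the least certain in size, since its rise was 4.73 in the probe set used and 1.72 in another.

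The 15 largest falls held several genes of the tubular epithelium. CLDN2, the claudin that forms the cation and water pore of proximal tight junctions, read 3.94, 3.14 and 3.54 with Di, against 9.42, 9.50 and 9.35 in controls, a fall by 5.88 (SE 0.19, adjusted p = 5.03e-12). COL4A3, a chain of basement membrane collagen, read 2.61, 3.21 and 3.62 with Di, against 8.50, 8.50 and 8.15 in controls. Both genes were at the bottom of the scale on all 3 Di arrays. SLC17A1 and SLC17A3, transporters of phosphate and urate, averaged 2.71 ± 0.10 and 4.46 ± 0.29 with Di and 7.25 ± 0.16 and 8.77 ± 0.24 in controls (SD, n = 3 each). VCAM1, an adhesion molecule of leukocyte contact, read 4.54, 4.67 and 5.90 with Di, against 9.52, 9.55 and 9.48 in controls, with a spread among the Di arrays (SD 0.75) far above that among controls (SD 0.04). KIF20A, a kinesin of cytokinesis, read 3.26, 4.45 and 3.98 with Di, against 8.46, 8.45 and 8.40 in controls. The remaining falls lay between -4.05 and -5.58 in TMT1A, BLNK (an adaptor of B cell receptor signalling), EPHA4 (an ephrin receptor), FRMD4B, ADAMTS9 (a secreted metalloprotease), CYS1 (a ciliary protein), TMEM255A, IRX5 (a homeobox factor) and SLC6A13 (a GABA transporter). For 8 of the 15 the Di mean lay below log2 4. TMT1A fell by 5.58 in the probe set used, and in the only other one above log2 4 it averaged 3.95 with Di and 4.23 in controls. Across the 30 genes, 10 had another probe set above log2 4, and all 15 such probe sets moved in the same direction. This is a match of sign and not of size. COL4A3 changed by -5.24 in the probe set used, and by -1.82 and -2.35 in others. SLC17A1 changed by -4.55 in the one used, and by -1.90 and -1.21 in others. For SLC6A13 the values were -4.05 and -1.11.

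**Figure D1:**
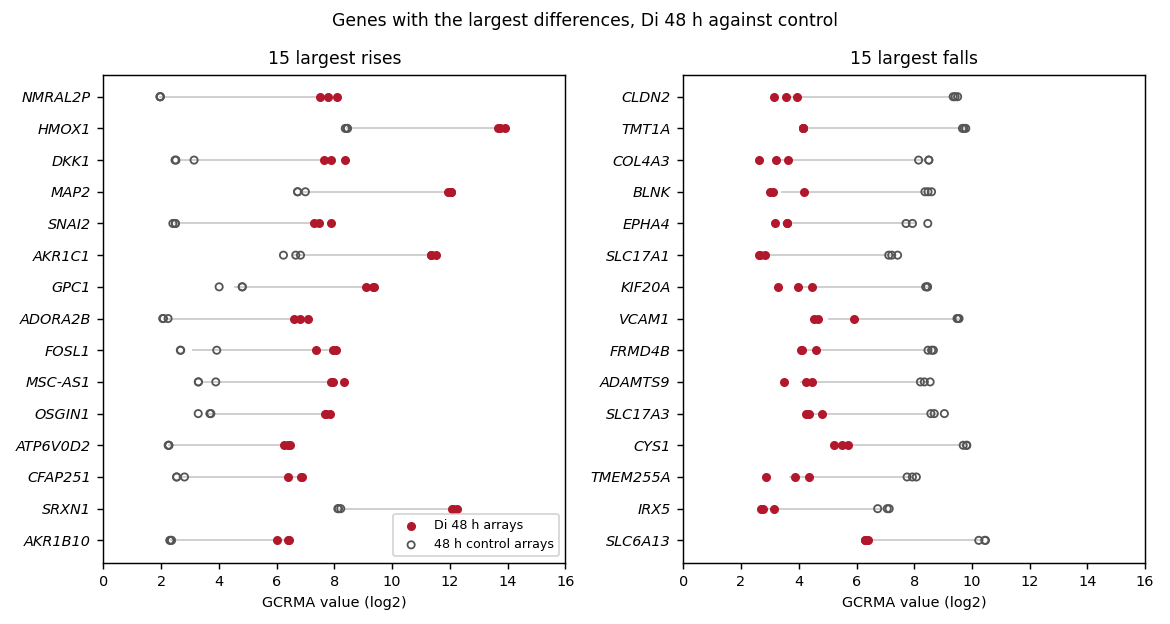
GCRMA values (log2, x axis) of the genes with the 15 largest rises (left) and the 15 largest falls (right), 1 row per gene. Filled points are the 3 Di arrays, open points the 3 control arrays at 48 h, and lines join the group means. Control values of NMRAL2P sit near 1.97 and those of HMOX1 near 8.42, while Di values of CLDN2 sit near 3.54.

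NRF2 targets rose nearly as a whole. Of 25 tested, 24 were called higher and none lower, with a median change of 2.51, against 21.4% higher and a median of -0.02 over all genes. The exception was TRIM16L, at 5.62 with Di and 5.56 in controls (adjusted p = 0.81). AKR1C1, an aldo-keto reductase, read 11.51, 11.36 and 11.35 with Di, against 6.66, 6.24 and 6.83 in controls. OSGIN1, an oxidative stress induced growth inhibitor, read 7.68, 7.85 and 7.72 with Di, against 3.69, 3.28 and 3.72 in controls. SRXN1, the sulfiredoxin that repairs peroxiredoxins, read 12.24, 12.11 and 12.06 with Di, against 8.14, 8.12 and 8.22 in controls. No Di array overlapped a control array for any of these 3 genes or for HMOX1. AKR1C1 shares most of its sequence with AKR1C2 and AKR1C3, so that their probe sets may read each other's transcripts.

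Called rises stood at several steps of the pathway, while the wider glutathione and thioredoxin lists moved both ways. GCLM and GCLC, the subunits of the enzyme that sets the rate of glutathione synthesis, rose by 3.57 (SE 0.09) and 3.45 (SE 0.08). Glutathione reductase (GSR) and the cystine carrier SLC7A11 rose by 1.95 and 1.91. In the thioredoxin system TXNRD1, the reductase, read 14.31, 14.30 and 14.31 with Di, against 11.60, 11.53 and 11.72 in controls, and thioredoxin itself (TXN) rose by 1.35. TXNIP, which binds thioredoxin and follows glucose, read 2.30, 1.98 and 1.89 with Di and averaged 3.68 in controls, so that its called fall lies at the bottom of the scale. NQO1, the quinone reductase, read 13.72, 13.69 and 13.68 with Di, against 10.04, 10.04 and 10.08 in controls. For NADPH supply, ME1 rose by 1.75 and TALDO1 by 1.45, while the mitochondrial enzymes IDH2 and NNT fell by 1.69 and 1.33. The 13 aldo-keto reductase and quinone genes tested gave 10 rises and 2 falls (76.9% and 15.4%). The 10 NADPH genes gave 6 rises and 2 falls (60.0% and 20.0%). The wider glutathione list gave 8 rises and 7 falls of 19 (42.1% and 36.8%), with changes down to -1.64. The thioredoxin list gave 7 rises and 6 falls of 16 (43.8% and 37.5%). Over all genes 21.4% were called higher and 25.9% lower. Among iron and haem genes 8 of 13 rose and 1 fell: beside HMOX1, the biliverdin reductase BLVRB rose by 1.25, the haem synthesis enzyme ALAS1 by 0.74 and the transferrin receptor TFRC by 0.45.

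The antioxidant response element, the DNA sequence that NRF2 binds with small MAF proteins, has the core TGACNNNGC. This core was searched on both strands in RefSeq promoters (GRCh38.p14, 250 bases before to 50 after a gene's start). At least 1 promoter held it for 6 of the 19 called NRF2 targets with an entry (31.6%), against 16.1% of all 27305 genes with an entry and 19.8% of the tested ones. The 3 with the largest changes whose match lies within 120 bases before the start are shown for the reader to see the element in place, with the matching 9 bases in capitals. They are GCLM (chr1:93909431-93909550, minus strand), TXNRD1 (chr12:104215659-104215778, plus strand) and EPHX1 (chr1:225825234-225825353, plus strand), each read 5′ to 3′ toward the start. EPHX1, an epoxide hydrolase, rose by 2.17.
GCLM: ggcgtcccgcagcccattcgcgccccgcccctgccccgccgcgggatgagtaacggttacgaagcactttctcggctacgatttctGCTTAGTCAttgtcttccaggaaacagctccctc
TXNRD1: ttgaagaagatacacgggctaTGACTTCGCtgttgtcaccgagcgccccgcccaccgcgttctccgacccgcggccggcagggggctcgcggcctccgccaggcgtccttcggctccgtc
EPHX1: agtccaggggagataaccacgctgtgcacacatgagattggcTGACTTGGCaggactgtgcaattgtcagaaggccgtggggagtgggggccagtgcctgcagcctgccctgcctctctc
The GCLM match lies 34 bases before the start on the opposite strand, and those of TXNRD1 and EPHX1 lie 99 and 78 bases before it. A match is a description of these letters and does not show binding.

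**Figure D2:**
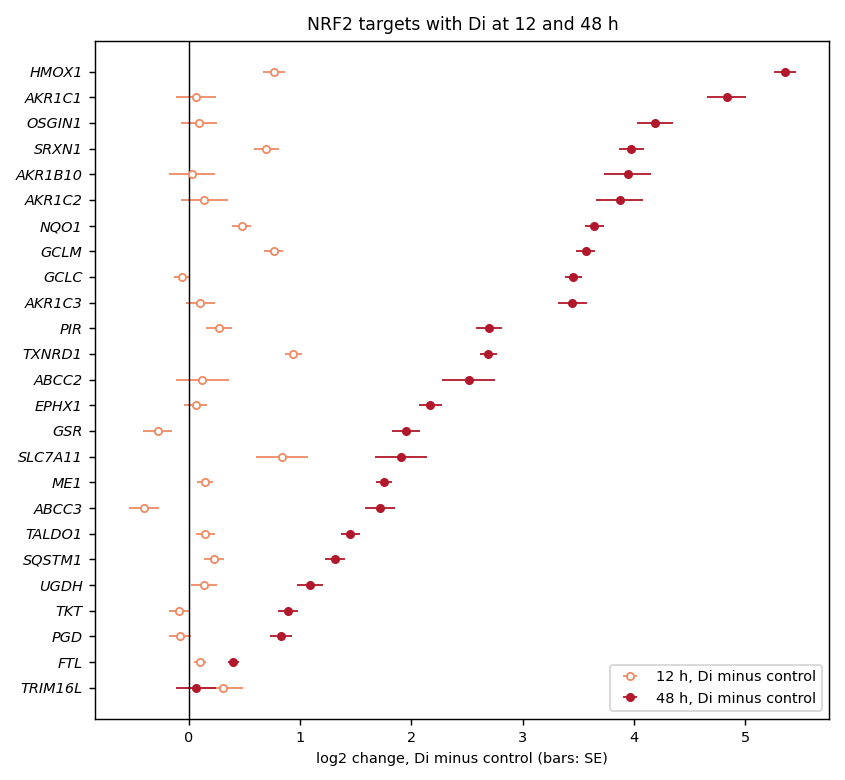
Log2 change of each of the 25 NRF2 targets tested (rows) with Di, as the mean of 3 Di arrays minus the mean of 3 control arrays of the same time. Open points are 12 h and filled points 48 h, and bars are standard errors. The 48 h changes run between 0.06 for TRIM16L and 5.36 for HMOX1, and the 12 h median is 0.14.

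Chaperones, the proteasome and tRNA synthetases rose by smaller amounts. Of 17 heat shock genes 14 rose and none fell (median 0.86). DNAJB4, a cytosolic co-chaperone, read 11.41, 11.60 and 11.54 with Di, against 9.53, 9.61 and 9.15 in controls. BAG3, HSPH1 and DNAJB1, which act with the HSP70 chaperones, rose by 1.75, 1.74 and 1.57. Of 26 proteasome genes 17 rose and none fell (median 0.28), among them PSMD3 by 0.79, PSMB7 by 0.63 and PSMA4 by 0.57. Of 23 genes of endoplasmic reticulum folding 15 rose and none fell (median 0.38): DNAJB11 rose by 0.80, HSP90B1 by 0.71 and MANF by 0.69. ERO1A, an oxidase of that compartment, rose by 1.00 in the probe set used, and in one that is not shared between transcripts its change was -0.14 (adjusted p = 0.19). Of 17 tRNA synthetases 13 rose and none fell (median 0.35), with CARS1 at 0.69 and LARS1 at 0.61. Rises thus made up 82.4% of the heat shock list, 65.4% of the proteasome list, 65.2% of the folding list and 76.5% of the synthetase list. For comparison, the 11045 genes tested had 21.4% rises and 25.9% falls, with a median change of -0.02.

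Targets of ATF4 gave 18 rises and 3 falls of 31 tested (58.1% and 9.7%, median 0.36). Over all genes 21.4% were called higher and 25.9% lower. ATF3, a stress-induced repressor, read 13.09, 13.05 and 13.07 with Di, against 10.06, 10.11 and 10.22 in controls. STC2, a secreted stanniocalcin, rose by 2.83. GDF15, a secreted stress hormone that p53 also controls, read 14.88, 14.74 and 14.69 with Di, against 12.69, 12.62 and 12.71 in controls. These genes were named for the size of their change, while the list as a whole moved by a fraction of a log2 unit. Amino acid carriers gave 9 rises and 4 falls of 19 (47.4% and 21.1%), the share of falls being near that of all genes. SLC7A5 rose by 1.88 and SLC36A1 by 1.46, and SLC3A1, the heavy chain of the tubular cystine carrier, fell by 2.73.

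Of 28 p53 targets 13 rose (46.4%, against 21.4% of all genes) and 2 fell (7.1%, against 25.9%), with a median of 0.30. Beside GDF15 the largest were AEN, a nuclease, at 1.92, PHLDA3, an inhibitor of AKT, at 1.88, and the CDK inhibitor CDKN1A. CDKN1A read 11.81, 11.92 and 11.91 with Di, against 10.02, 10.05 and 10.15 in controls. CDKN2B, another CDK inhibitor, rose by 2.64 (SE 0.25), and the G1 cyclin CCNE2 fell by 2.81. Of 19 G1 cyclins and CDK inhibitors 5 rose (26.3%) and 7 fell (36.8%). E2F8, a repressor of the cell cycle programme, fell by 2.01. Of 20 apoptosis genes 7 rose (35.0%, against 21.4% of all genes) and 6 fell, against 25.9% of all genes, shares near those of all genes, with the BH3-only genes HRK and PMAIP1 up by 2.67 and 1.45, CASP6 down by 1.36 and TNFRSF1A up by 0.94.

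Genes of cell division fell nearly throughout. Of 34 mitosis genes 33 were called lower and none higher (median -1.21), against 25.9% lower over all genes, and NUF2 changed by -0.68 (adjusted p = 0.061). Of 35 DNA replication genes 31 were lower and 1, RFC5, was higher at 0.56 (median -1.13). KIF20A fell by 4.54 (SE 0.20), CENPE, a kinetochore motor, by 2.64 and CDC25C, a phosphatase of mitotic entry, by 2.24. NDC80, a kinetochore protein, read 5.16, 6.42 and 6.39 with Di, against 7.77, 8.14 and 8.18 in controls. RRM2, the regulated subunit of ribonucleotide reductase, read 8.24, 8.19 and 8.34 with Di, against 11.24, 11.60 and 11.29 in controls. MCM7, a subunit of the replicative helicase, read 6.63, 6.32 and 6.75 with Di, against 9.48, 9.64 and 9.53 in controls. UHRF1, which carries DNA methylation through replication, fell by 2.27 and the ligase LIG1 by 2.21. Homologous recombination and Fanconi genes gave 1 rise and 10 falls of 20, led by BRIP1 at -2.51, BARD1 at -1.98, FANCG at -1.68 and RAD51AP1 at -1.12.

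Control cultures were themselves lower in these genes at 48 h than at 12 h. All 34 mitosis and all 35 replication genes had a lower mean in the 48 h controls, and the median mitosis level was 10.37 with Di at 12 h and 7.58 at 48 h, against 10.61 and 8.69 in the controls of those times. At 12 h 8 of the 34 mitosis genes and 4 of the 35 replication genes were called lower with Di (medians -0.24 and -0.13), against 8.23% of all genes, a share near that of the replication genes. The change at 48 h was more negative than that at 12 h by the fitted difference for 29 of the 34 and 27 of the 35, against 16.2% of all genes.

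**Figure D3:**
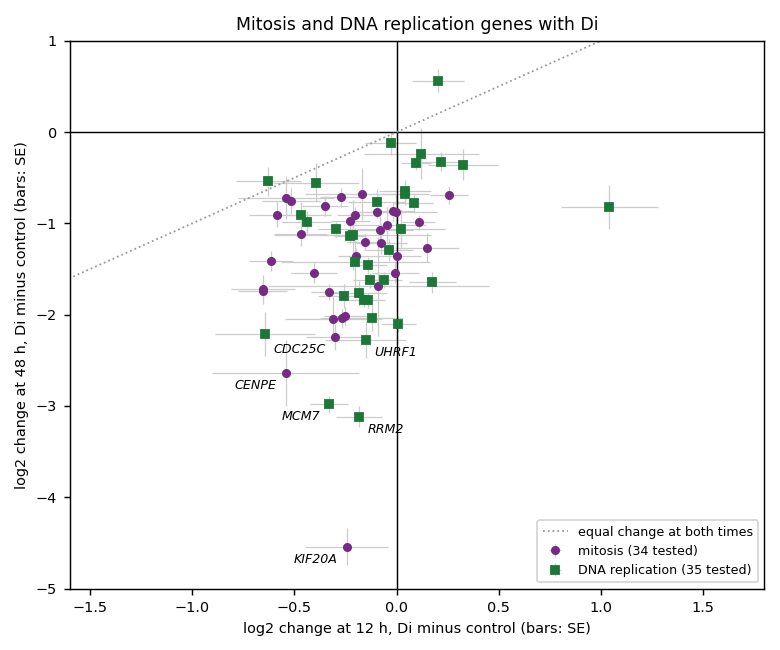
Log2 change at 12 h (x axis) and at 48 h (y axis) of 34 mitosis genes (circles) and 35 DNA replication genes (squares), Di minus control of the same time, with standard errors. The dotted line marks an equal change at both times. Most points lie between -0.7 and 0.4 on the x axis, GINS4 stands at 1.04, and KIF20A is lowest on the y axis at -4.54.

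Late cell cycle promoters often carry the cell cycle genes homology region, with the letters TTTGAA, which binds complexes of the MuvB family. Searched on both strands in the same windows, it stood in at least 1 promoter of 19 of the 27 called mitosis genes with an entry (70.4%), against 18.2% of all genes with an entry and 13.7% of the tested ones. Shown are the 120 bases before the start, 5′ to 3′ with the match in capitals, of the 3 genes with the largest changes that hold it there: CDC25C (chr5:138331805-138331924, minus strand), KIF11 (chr10:92593010-92593129, plus strand) and DLGAP5 (chr14:55191586-55191705, minus strand).
CDC25C: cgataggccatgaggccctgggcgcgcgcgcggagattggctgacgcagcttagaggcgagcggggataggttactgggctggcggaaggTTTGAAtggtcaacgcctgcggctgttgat
KIF11: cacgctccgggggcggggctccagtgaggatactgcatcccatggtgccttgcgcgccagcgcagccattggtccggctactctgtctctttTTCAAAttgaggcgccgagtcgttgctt
DLGAP5: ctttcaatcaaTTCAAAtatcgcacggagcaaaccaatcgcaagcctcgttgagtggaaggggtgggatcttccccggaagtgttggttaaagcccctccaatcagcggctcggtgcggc
KIF11, the motor that separates spindle poles, fell by 2.02, and DLGAP5, a spindle protein, fell by 1.75.

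Metallothioneins separated Di from CdCl. With Di all 7 metallothionein genes tested were lower than in controls, by -1.04 to -1.32, while SLC30A1, the zinc exporter, was higher by 0.24. MT1M read 6.92, 7.14 and 6.89 with Di, against 8.21, 8.06 and 8.45 in controls. MT1G read 9.22, 9.25 and 9.26 with Di, against 10.49, 10.44 and 10.45 in controls. MT1F and MT1X fell by 1.32 (SE 0.07) and 1.30 (SE 0.10). At 12 h none of the 7 was called with Di. The MT1 genes are near-identical copies on chromosome 16 and their probe sets may read each other, so that the 7 are not independent measurements.

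The direct comparison of both compounds at 48 h, in which no control array enters, called 4703 genes (42.6%), 2096 higher with Di (19.0%) and 2607 lower (23.6%). With the arrays of the whole series in 1 fit it called 2205. MT1M averaged 6.98 ± 0.13 with Di and 14.5 ± 0.14 with CdCl, a difference of -7.50 (SE 0.10, adjusted p = 1.46e-16), and MT1G differed by -5.41. Also lower with Di were SOCS2, a feedback inhibitor of cytokine signalling, at 2.76 ± 0.33 with Di and 8.91 ± 0.60 with CdCl, ASB5 at 2.92 ± 0.08 with Di and 8.68 ± 0.51 with CdCl, and the collagen gene COL12A1, at 4.03 ± 0.67 with Di and 9.41 ± 0.18 with CdCl. SOCS2 and ASB5 stood at the bottom of the scale in the 48 h controls too (3.29 and 2.92). Neither was called in Di against control at 48 h (limma adjusted p = 0.16 and 0.99). At 12 h ASB5 averaged 6.93 with Di and 6.64 in controls. Higher with Di were TM6SF1 at 6.64 ± 0.11 with Di and 3.81 ± 0.16 with CdCl, the diacylglycerol kinase DGKG at 6.55 ± 0.07 with Di and 3.85 ± 0.60 with CdCl, and the receptor F2RL2 at 5.97 ± 0.26 with Di and 3.29 ± 0.17 with CdCl. AKR1B10 and KLHDC7B were also higher with Di, by 2.63 and 2.60. This holds for 48 h: AKR1B10 averaged 3.64 ± 0.57 with CdCl at 48 h and 6.98 ± 0.26 with CdCl at 12 h, against 6.27 ± 0.23 with Di at 48 h.

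Against the shared controls CdCl called 5130 genes (46.4%), 2529 higher (22.9%) and 2601 lower (23.5%), with 20 of 25 NRF2 targets higher and 1 lower, 9 of 31 ATF4 targets higher and 16 lower, and 30 of 34 mitosis genes lower. In the direct comparison the lists differed as follows, beside 19.0% of all genes higher with Di and 23.6% lower. NRF2 targets were higher with Di than with CdCl in 21 of 25 and lower in 1, HMOX1, by -0.66 (adjusted p = 8.51e-05). Of 31 ATF4 targets 22 were higher with Di and 1 lower, and of 28 p53 targets 18 were higher and none lower. Of 34 mitosis genes 2 were higher and 23 lower with Di, with KIF20A at 3.90 ± 0.60 with Di and 7.14 ± 0.21 with CdCl. SLC17A3 averaged 4.46 ± 0.29 with Di and 8.92 ± 0.10 with CdCl. SNAI2 differed by 0.31 (SE 0.25, adjusted p = 0.34), which leaves a difference of either sign possible.

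**Figure D4:**
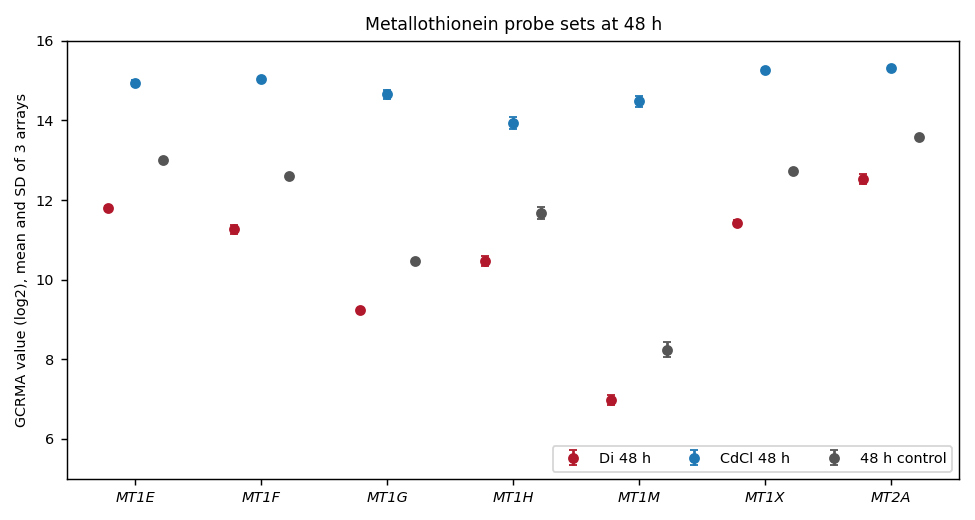
GCRMA values (log2, y axis) of the 7 metallothionein genes tested at 48 h, as the mean and SD of 3 arrays with Di (left), CdCl (middle) and in the shared controls (right). MT1M is at 6.98 with Di, 14.5 with CdCl and 8.24 in controls. Di lies below controls and CdCl above them in each of the 7.

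Signalling genes of the growth factor and AP-1 pathways were higher in part. Of the EGF list 81.8% rose and 9.1% fell, and of the ERK feedback list 63.2% rose and 21.1% fell. In the AP-1 list 47.6% rose and 19.0% fell. Over all genes 21.4% were called higher and 25.9% lower, so that no list had a larger share of falls than all genes. Of 11 EGF family genes 9 rose and 1 fell (median 0.87). EGF itself read 6.55, 6.20 and 6.54 with Di, against 4.50, 4.30 and 4.07 in controls, and the ligands BTC and HBEGF rose by 1.87 and 1.38. The receptor ERBB2 fell by 1.46. ERK feedback genes gave 12 rises and 4 falls of 19: the phosphatase DUSP5 read 11.80, 11.66 and 11.41 with Di, against 8.01, 8.06 and 8.14 in controls, DUSP1 rose by 1.99, and DUSP6 and SPRY1 fell by 1.96 and 2.76. Of 21 AP-1 and immediate early genes 10 rose and 4 fell. FOSL1 read 8.05, 7.96 and 7.37 with Di, against 3.92, 2.66 and 2.68 in controls, and KLF4 rose by 2.12. EGR1, an early growth response factor, went the other way and read 8.57, 8.68 and 8.77 with Di, against 10.89, 10.96 and 10.84 in controls.

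Single junction and adhesion genes changed by large amounts. Of 18 tight junction genes 5 rose (27.8%, near the 21.4% of all genes) and 8 fell (44.4%, against 25.9%). Beside CLDN2, the scaffolds CGNL1 and CGN fell by 2.07 and 1.74, and CLDN4, a claudin of the distal nephron, read 8.68, 8.94 and 8.86 with Di, against 7.49, 7.31 and 7.54 in controls. Of 15 cadherins and regulators of epithelial to mesenchymal change 5 rose and 7 fell. CDH6, the cadherin of the proximal tubule, read 7.59, 7.71 and 7.81 with Di, against 11.27, 11.39 and 10.97 in controls, and CDH16 fell by 2.28. ZEB2, a repressor related to ZEB1, rose by 2.60 (SE 0.64) in the probe set used. Its other probe sets lay below log2 4 in both groups and give no reading of that rise. E-cadherin (CDH1) averaged 6.80 with Di and 8.13 in controls, and EPCAM 13.0 with Di and 13.5 in controls. Of 15 keratin and desmosome genes 6 rose and 4 fell: KRT80 rose by 1.38, KRT20 fell by 1.69 and KRT19 fell by 1.20.

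Of 31 proximal tubule genes 4 were not analysed here and 17 stayed below the filter, so only 10 were tested, of which 2 rose and 5 fell. CDH6 fell by 3.51 and SLC3A1 by 2.73. SLC34A2, a phosphate carrier, read 5.83, 3.83 and 3.82 with Di, against 6.07, 5.96 and 6.14 in controls, so that 1 Di array nearly reached the controls. Kidney injury markers gave 8 rises and 11 falls of 24 (33.3% and 45.8%, against 21.4% and 25.9% of all genes). CD24, a surface protein of tubular progenitor cells, read 10.91, 10.72 and 10.85 with Di, against 14.21, 14.26 and 14.34 in controls, and VCAM1 fell by 4.48. ATF3 rose by 2.94 and LCN2, the secreted lipocalin used as an injury marker, read 7.28, 7.93 and 7.61 with Di, against 5.77, 5.15 and 5.40 in controls; with the arrays of the whole series in 1 fit LCN2 was not called (adjusted p = 0.20). HAVCR1 (KIM-1), which lies outside the 4 largest and was picked after its values were seen, read 8.54, 9.08 and 8.88 with Di, against 10.23, 10.43 and 10.23 in controls.

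**Figure D5:**
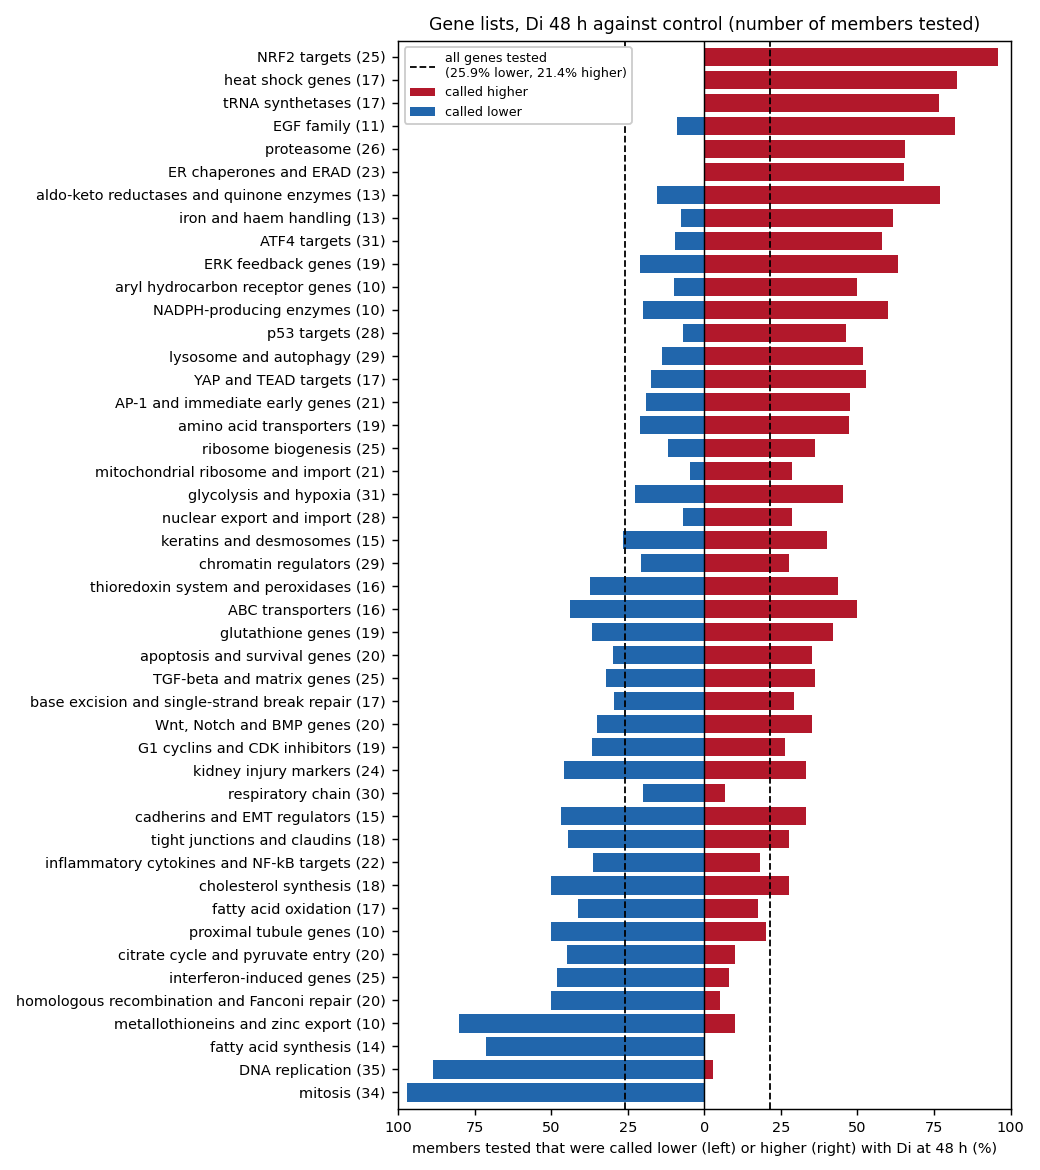
Share of the tested members of each gene list (rows, number tested in brackets, lists with at least 10) called lower (left) or higher (right) with Di at 48 h. Dashed lines mark the shares over all genes, 25.9% lower and 21.4% higher. NRF2 targets stand at the top with 96.0% higher and mitosis genes at the bottom with 33 of 34 lower.

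Matrix genes moved both ways, and hypoxia and lysosome genes rose in part. Over all genes 21.4% were called higher and 25.9% lower. The shares higher and lower were 36.0% and 32.0% of the matrix list and 45.2% and 22.6% of the hypoxia list. They were 51.7% and 13.8% of the lysosome list and 52.9% and 17.6% of the YAP list. Of 25 matrix and TGF-beta genes 9 rose and 8 fell, with the urokinase PLAU up by 1.62 and its relative PLAT down by 1.79, COL4A1 down by 1.66 and COL12A1 down by 1.26. Of 31 glycolysis and hypoxia genes 14 rose and 7 fell: the peptide hormone ADM read 9.97, 10.07 and 9.83 with Di, against 7.19, 6.87 and 6.86 in controls, and NDRG1, the glucose carrier SLC2A1 and the collagen hydroxylase P4HA2 rose by 2.27, 2.05 and 1.32. Of 29 lysosome and autophagy genes 15 rose and 4 fell, among them the protease CTSL by 1.93, the autophagy receptor SQSTM1 by 1.31, GLA by 1.19 and GABARAPL1 by 1.07. Of 17 YAP and TEAD targets 9 rose and 3 fell, with DLC1 and NT5E up by 2.67 and 2.34.

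Lipid and interferon genes had more falls than rises, as did all genes tested (25.9% lower and 21.4% higher). The shares lower and higher were 71.4% and 0.0% of the fatty acid synthesis list and 41.2% and 17.6% of the fatty acid oxidation list. They were 48.0% and 8.0% of the interferon list and 36.4% and 18.2% of the cytokine list. The steroid list had 33.3% each way and the Wnt, Notch and BMP list 35.0% each way. Of 14 fatty acid synthesis genes none rose and 10 fell (median -0.36), with the regulator SREBF1 at -1.51 and ACSS2 at -1.32. Cholesterol synthesis gave 5 rises and 9 falls of 18, led by the reductase TM7SF2 at -2.41. Fatty acid oxidation gave 3 rises and 7 falls of 17: PDK4, a kinase that closes pyruvate entry, read 9.93, 9.65 and 9.73 with Di, against 12.05, 12.22 and 11.87 in controls, and the coactivator PPARGC1A fell by 1.47. Interferon-induced genes gave 2 rises and 12 falls of 25, with IFI44 at -2.28, IFI44L at -2.22 and IFITM1 at -1.63. Of 22 cytokine and NF-kB genes 4 rose and 8 fell, with CCL2 down by 2.07 and IL1A up by 1.42. Among 9 steroid and retinoid genes 3 rose and 3 fell. The glucocorticoid-induced kinase SGK1 read 9.21, 9.17 and 9.21 with Di, against 12.45, 12.56 and 12.48 in controls, and TSC22D3 fell by 1.78. In the Wnt, Notch and BMP list 7 of 20 rose and 7 fell, with HEY1 up by 2.97 the receptor FZD7 up by 2.18 and the BMP-induced ID1 down by 2.74.

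Di at 12 h gave a different and smaller picture. Against its own controls 1308 genes were called (11.8%), with 909 falls (8.23%) and 399 rises (3.61%). At least 2-fold changes numbered 69. The count was 48 with the arrays of the whole series in 1 fit and 216 with only the arrays of this contrast. A total of 769 genes were called at both times, 570 with the same sign, which is 10.9% of the 48 h calls and 43.6% of the 12 h calls, and 199 with the opposite sign. Since 47.4% of all genes were called at 48 h and 11.8% at 12 h, shared calls also arise between unrelated times. The overlap was not tested against that. Across genes the changes at both times correlated at r = 0.24. Of the NRF2 targets, 6 of 25 were called higher at 12 h: HMOX1 averaged 8.89 ± 0.07 with Di and 8.13 ± 0.20 in controls at 12 h, and TXNRD1 rose by 0.94. The change at 48 h exceeded that at 12 h by the fitted difference for 24 of the 25, against 17.5% of all genes. FOSL1 was called at 12 h too, by 1.25 (adjusted p = 0.011), while NMRAL2P, DKK1, SNAI2 and CLDN2 changed by -0.01, -0.01, -0.02 and -0.02 at that time, none of them called. HAVCR1 differed in sign, at 1.06 at 12 h and -1.46 at 48 h. Of the 12 h arrays, replicate 2 of Di stood apart, with correlations of 0.995 to the other replicates, whose own was 0.998. Without it 932 genes were called. The 12 h calls rest on the control arrays as well, since 599 genes were called without control replicate 2 and 702 without control replicate 3.

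The 30 genes were also read in the 26 treated conditions of the series, each against its own controls. Since the genes were chosen for the size of their change with Di, the order is a description. Of the 15 rises 13, and of the 15 falls 12, had their largest change in that direction with Di at 48 h, among the conditions in which the gene passed the filter. These were fewer than 26 for several rises. NMRAL2P and AKR1B10 were tested in 4 conditions, all of Di or CdCl, CFAP251 in 8, and DKK1, SNAI2 and ATP6V0D2 in 12. HMOX1 was higher with CdCl, at 6.14 at 12 h, and it was called higher in 9 other conditions. KIF20A had its next largest fall at -1.54, with the high dose of the compound labelled Aa at 24 h. SLC17A3 fell by 4.23 with the high dose labelled Kbr at 48 h, and COL4A3 by 4.97 with the high dose labelled Ota at 72 h.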

How the data were processed

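RNA of HK-2 cultures was hybridised to Affymetrix 3′ expression arrays. The deposited table holds log2 values that the authors made with GCRMA, per the submitters' processing notes, with all arrays normalised together, per the series' design text; versions are not given in the sources used here. The table has no raw intensities, and the number of arrays limits the precision. Probe sets were named through the platform annotation: of 54675, 41091 had 1 symbol, 1801 several and 11721 none, and 62 are controls. Each of 19775 genes was read from its brightest probe set on average. limma 3.58.1 (R 4.3.3; lmFit, eBayes, no block) was fitted to the 18 arrays of 6 groups, with Benjamini-Hochberg adjusted p below 0.05 as the threshold, and was tested on simulated data. Members and the 51 gene lists were chosen with earlier results of these data known, and a list is described by counts and medians without a test. Named genes are the 15 largest called rises and falls with groups that do not overlap, up to 4 called members of each list with the largest changes, and the 5 largest each way for the other contrasts. Deviations of same-numbered arrays from their group means had correlations between -0.253 and 0.16, so numbers do not pair cultures. Alternatives covered the filter, probe set choice, quantile normalisation, limma's trend, the arrays fitted, a replicate block and leaving out each array. Promoter sequences are RefSeq's (GRCh38.p14). No array column was left unused.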

Additional observations from a re-analysis of the deposited data

Results flagged for a closer look

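The response to Di differed between 48 h and 12 h for 3715 genes, by the fitted difference of the 2 changes, each against the controls of its time (limma, 33.6% of genes tested, 1929 more positive and 1786 more negative at 48 h). With the arrays of the whole series in 1 fit the count was 1266. The differences were 5.84 for NMRAL2P, 5.52 for MAP2, 5.27 for DKK1, 5.12 for SNAI2 and 4.86 for MSC-AS1 on the positive side. On the negative side they were -5.87 for CLDN2, -5.01 for TMT1A, -4.30 for KIF20A, -4.29 for SLC17A3 and -4.12 for COL4A3. All 10 had adjusted p-values of 1.08e-05 or lower, and of the 10 only COL4A3 was called at 12 h itself, at -1.11 (adjusted p = 0.044). Groups of 3 arrays are too small for a test of outlying samples.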

How the results depend on the processing

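The count of 5231 genes called for Di at 48 h ranged between 3850 and 5347 over the alternatives, apart from the fit of all arrays of the series, which gave 3046. That fit also gave 48 genes for Di at 12 h, 1266 for the difference between times and 2205 for Di against CdCl, where the main counts were 1308, 3715 and 4703. The 12 h count was 776 without probe sets ending _x_at or _s_at, 216 with only the arrays of the contrast, and 42.4% of its calls were higher after quantile normalisation, against 30.5% as reported. Leaving out each array in turn gave 4672 to 4789 genes for Di at 48 h, 599 to 1097 for Di at 12 h, 3297 to 3783 for the difference between times and 4041 to 4236 for Di against CdCl. The replicate block gave 5125, 1102, 3569 and 4546 genes for the same 4 results and ended none of the calls of the named genes. Of 209 genes followed through 15 alternatives, 2965 values kept direction and call, 72 kept direction and lost the call, and 5 had the other sign, all without _x_at and _s_at probe sets, where another probe set stands for the gene: ACSL4 0.00724, ERO1A -0.145, PSMD11 -0.299, TIMM50 -0.397 and ZEB2 -0.027. The probe set for ZEB2 lay at 2.77 with Di and 2.80 in controls, so its sign has no meaning, and those for ACSL4 (4.18 with Di, 4.17 in controls) and TIMM50 (3.86 with Di, 4.26 in controls) lay near log2 4. The calls lost most often were those of POLRMT (8 alternatives), SLC22A4 (7), IFIT1 and ARRDC3 (6 each) and POLR1A (5). Probe sets near the bottom of the scale limit the folds given for genes absent from 1 group.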

Other observations

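Further lists are given beside the 21.4% of all genes called higher and 25.9% called lower with Di at 48 h. Chromatin regulators gave 8 rises and 6 falls of 29, with the deacetylases HDAC9 and HDAC4 up by 2.57 and 2.16, the DNA methyltransferase DNMT3B at 10.78, 10.95 and 11.07 with Di, against 8.71, 8.98 and 8.90 in controls, and the demethylase KDM7A up by 1.74. Nuclear transport genes gave 8 rises and 2 falls of 28, with the nucleoporins NUP88, NUP98 and NUP153 up by 0.93, 0.91 and 0.68. Of 25 ribosome biogenesis genes 9 rose and 3 fell, and of 21 genes of the mitochondrial ribosome and import 6 rose and 1 fell. Respiratory chain genes gave 2 rises and 6 falls of 30, with changes between -0.41 and 0.35, and the citrate cycle list gave 2 rises and 9 falls of 20. Base excision repair gave 5 rises and 5 falls of 17, with UNG, the uracil glycosylase, down by 1.49 and PARP1 down by 1.38. Of 8 histone genes tested 3 fell, led by H1-10 at -1.06.

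ABC transporters gave 8 rises and 7 falls of 16: ABCC2 read 5.22, 4.47 and 4.97 with Di, against 2.38, 2.36 and 2.37 in controls, ABCC3 and ABCC1 rose by 1.72 and 1.42, and ABCB6 by 1.16. Aryl hydrocarbon receptor genes gave 5 rises and 1 fall of 10, the fall being CYP1B1 at 5.91, 6.24 and 6.44 with Di, against 8.11, 8.29 and 8.34 in controls. The rises of that list were in NQO1, MAFF, MAFG and other genes, some of which belong to the NRF2 list too. Glucose-sensing and monocarboxylate genes gave 4 falls and no rise of 8, with SLC16A7 down by 1.38.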
